A study of Mus musculus with 8 samples.

Results

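The nuclear genes for subunits of respiratory chain complexes I to IV were taken from the gene count table by their symbols. They comprised 66 of the 24537 genes: 36 of complex I (Nduf), 4 of complex II (Sdh), 8 of complex III (Uqcr) and 18 of complex IV (Cox). RNA sequencing had been done on EpCAM-positive cells sorted by FACS from pancreatic tumours of FVB/NJ mice aged 44 to 49 days, with 1 library for each of 8 tumours. All mice carried KrasLSL-G12D/+, Trp53f/f, a Rosa26LSL-Luc luciferase reporter and Pdx1-Cre, a recombinase under a promoter active in the developing pancreas. The 4 tumours labelled KO were Lifrf/f, with both alleles of the leukaemia inhibitory factor receptor gene floxed. The 4 tumours labelled WT were of 2 genotypes, Lifrf/+ in replicates 1 and 2 and Lifr+/+ in replicates 3 and 4. The comparison asks how tumours labelled as lacking Lifr differ from the controls, here by complex and by control genotype.

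The respiratory chain sits in the inner mitochondrial membrane. Complex I oxidises NADH and complex II oxidises succinate, both pass electrons through ubiquinone to complex III, and cytochrome c carries them to complex IV, which reduces oxygen. Complexes I, III and IV pump protons, and the gradient drives the ATP synthase, complex V. Each complex other than II also holds subunits encoded by mitochondrial DNA, which are not analysed here.

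Of the 66 genes, 60 had enough counts to be tested. Between tumours labelled KO and WT, 2 of the 60 (3.33%) were called higher and 0 lower at an adjusted p under 0.05, by the quasi-likelihood test of edgeR adjusted after Benjamini and Hochberg over 14728 genes. Over all tested genes 11.1% were called higher, 10.8% lower and 21.8% in either direction. The genes called were Sdha, the flavoprotein of complex II that oxidises succinate, and Ndufa3, an accessory subunit in the membrane arm of complex I. An unadjusted p under 0.05 was found for 10 of the 60 genes, beside 36% of all tested genes. DESeq2 called 5 of the 60 higher and 0 lower, beside 14.2% and 14% of all. In 6 genes the labelled groups did not overlap (Sdha, Sdhc, Ndufa3, Ndufa13, Ndufb10 and Cox7b), beside 25.5% of all tested genes. The median log2 fold change of the 60 genes was 0.12, and that of all tested genes 0.011.

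NRF1 and GABP are transcription factors well known for binding promoters of respiratory chain genes, so the 250 bases before the start of the called genes are shown, with those of Sdhd, a membrane anchor of complex II that was not called, for comparison. The sequences are from RefSeq (GRCm38.p6), written 5′ to 3′ on the strand of the gene, and capitals mark matches to the motifs searched.
Sdha (chr13:74350241-74350490, minus strand): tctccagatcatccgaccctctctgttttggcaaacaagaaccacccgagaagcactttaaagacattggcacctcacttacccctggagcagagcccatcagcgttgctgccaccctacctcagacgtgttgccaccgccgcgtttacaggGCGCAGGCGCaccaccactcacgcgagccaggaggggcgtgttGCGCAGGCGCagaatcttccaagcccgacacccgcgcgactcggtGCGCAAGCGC
Sdhd (chr9:50603850-50604099, minus strand): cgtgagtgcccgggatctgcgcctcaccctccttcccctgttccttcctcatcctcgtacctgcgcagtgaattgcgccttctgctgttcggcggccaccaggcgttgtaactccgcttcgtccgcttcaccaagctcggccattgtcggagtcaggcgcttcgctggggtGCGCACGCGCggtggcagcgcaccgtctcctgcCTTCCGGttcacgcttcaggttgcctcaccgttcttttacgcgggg
Ndufa3 (chr7:3617123-3617372, plus strand): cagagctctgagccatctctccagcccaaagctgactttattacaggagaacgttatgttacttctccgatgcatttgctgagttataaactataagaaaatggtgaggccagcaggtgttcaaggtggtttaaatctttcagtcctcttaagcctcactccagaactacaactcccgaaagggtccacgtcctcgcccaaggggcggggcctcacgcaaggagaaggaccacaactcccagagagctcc

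The motifs were searched on both strands: GCGCA, any base and GCGC for NRF1, CCGGAAG for GABP, and AA, any base and ATGGCG for YY1. Sdha had 3 matches to the NRF1 motif, Sdhd had 1 match each to the NRF1 and GABP motifs, and Ndufa3 had 0 matches. Such a window was found for 53 of the 66 genes, 50 of them tested. Of these 50 windows, 18% held the NRF1 motif, 16% the GABP motif and 2% the YY1 motif. Over all 11191 tested genes with a window the shares were 7.6%, 13.1% and 1.98%. The matches describe letters in a window and were not tested against the expression values.

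Levels of the subunit genes differed widely when set side by side per transcript length, on the FPKM scale (reads scaled to transcript length and library size, mean of the 8 tumours). The median level of the tested genes was 27.5 FPKM in complex I, 45.7 in complex II, 40.3 in complex III and 46.9 in complex IV. The 4 complex II genes lay close together, from 40.7 FPKM for Sdhc to 58.3 FPKM for Sdhd. Complex I ran from 1.23 FPKM for Ndufs5 to 68.0 FPKM for Ndufb8, an accessory membrane-arm subunit. Complex III ran from 16.1 FPKM for Uqcrb to 83.9 FPKM for Uqcrh, the hinge protein beside cytochrome c1. The highest levels of the 66 genes were in complex IV, with 200 FPKM for Cox4i1, 139 FPKM for Cox6b1 and 123 FPKM for Cox6a1.

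All 6 untested genes belonged to complex IV, and 5 of them are known mainly from other tissues. Cox8b, of heart and skeletal muscle, and Cox8c, of testis, were listed at 0 counts in every tumour. Cox7b2, a testis isoform, had 2 counts over the 8 tumours, and Cox6a2, the muscle isoform of Cox6a1, had 20. Cox4i2, an oxygen-responsive isoform best known from lung, had 85 counts, and its ubiquitous partner Cox4i1 had 36124. Among tested isoforms, Cox6b2 (3.45 FPKM) and Cox7a1 (1.96 FPKM) were likewise far below Cox6b1 (139 FPKM) and Cox7a2 (45.2 FPKM). The ubiquitous form was thus the abundant one in each of these pairs.

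The sixth untested gene, Cox7c, codes for a ubiquitous subunit but had only 60 counts in all. Of the 50-base stretches of its transcript, 53% also occur in transcripts of 3 annotated pseudogenes. Whether this affected its count was not tested. The same search found no shared stretch in 42 of the 66 genes and a shared part of at least 25% in 7. Besides Cox7c these were Ndufa12 (53.8%), Uqcrb (43.2%), Ndufs5 (41.2%), Ndufb4 (37%), Ndufs3 (35.8%) and Cox5b (25.9%), and all values of these genes are uncertain. Ndufs5 and Ndufb4 had the lowest levels of complex I, at 1.23 and 4.40 FPKM, and Uqcrb the lowest of complex III. The next lowest of complex I were Ndufa11 (6.02 FPKM, 7.86% shared), Ndufs3 (9.13 FPKM, 35.8%) and Ndufa12 (10.6 FPKM, 53.8%). Ndufa11 was scaled to a length of 2655 bases, while its transcript in this search had 545, so its FPKM is uncertain. A link between shared stretches and level was not tested.

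**Figure D1:**
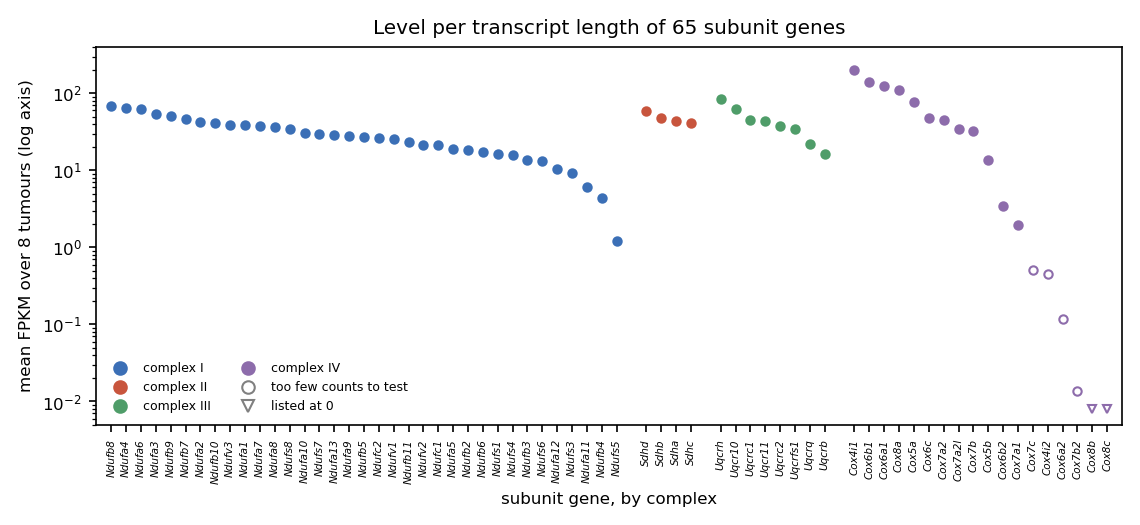
Mean FPKM over 8 tumours (log axis) of 65 of the 66 subunit genes, ordered within complexes I to IV; open circles mark genes with too few counts to test and open triangles genes listed at 0. The highest gene is Cox4i1 (200 FPKM), and the untested genes of complex IV lie at or below 0.52 FPKM (Cox7c).

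Several features of the libraries bear on the comparison. Counts summed to 14938875 to 22698340 per tumour, of which the 66 genes took 0.317% to 0.370% in tumours labelled KO and 0.349% to 0.385% in tumours labelled WT. Lifr itself was at 158, 205, 150 and 220 CPM in KO replicates 1 to 4 and at 126, 93.7, 71.8 and 99.6 CPM in WT replicates 1 to 4 (CPM is the count scaled to library size, with TMM factors). All tumours labelled KO were above all labelled WT, against the direction of the label (log2 fold change 0.90 ± 0.19 SE, edgeR adjusted p = 0.0121), so groups are named by their labels throughout. The labels do not say which exons are floxed, and the counts cover all exons of the transcript.

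Marker genes of several cell types also differed between the labelled groups. Epcam, the marker used in the sort, was lower in the tumours labelled KO, at 421 ± 57.7 against 775 ± 96.5 CPM (SD, n = 4 each, edgeR adjusted p = 0.00519). Of 20 epithelial markers 15 were called lower and 0 higher (median log2 fold change −0.74), and their sum was 3972 to 5474 CPM against 7412 to 9979 CPM. Of 16 macrophage markers 15 were called higher and 0 lower (median 1.18), with a sum of 23162 to 30265 CPM against 8925 to 16092 CPM. No marker of these lists was at 0 in any tumour. Acinar markers summed to 2289 to 51079 CPM against 525 to 11511 CPM, with 0 of 14 called by edgeR, 4 at an unadjusted p under 0.05 and 2 called by DESeq2. In such bulk samples fewer cells of a type and less RNA per cell cannot be told apart, and the part of these differences in the results on subunit genes was not tested.

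The scaling moved all small differences together. With library totals in place of TMM, the median log2 fold change went from 0.011 to −0.17 over all tested genes and from 0.12 to −0.054 over the 60 subunit genes. The calls over all tested genes went from 1630 higher and 1586 lower to 900 higher and 3108 lower. The subunit median lay 0.11 above that of all tested genes under both, and 46 of the 60 genes lay above it under each. Directions of single subunit genes are therefore those under TMM, and hold relative to all genes rather than to total RNA.

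In complex II 1 of 4 genes was called (25%), beside 21.8% of all tested genes. All 4 had log2 fold changes above 0 (median 0.18). Sdha was at 231, 247, 251 and 245 CPM in KO replicates 1 to 4 and at 195, 216, 209 and 205 CPM in WT replicates 1 to 4. Every tumour labelled KO was above every tumour labelled WT. Sdha rose by a log2 fold change of 0.24 ± 0.068, from 206 ± 8.67 to 244 ± 9.02 CPM (SD, n = 4 each, edgeR adjusted p = 0.0368).

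The other 3 genes of complex II did not pass the edgeR test. DESeq2 called 2 of the 4 genes higher, Sdha and Sdhc, beside 14.2% of all tested genes. Sdhc, a membrane anchor, was at 93.5, 90.4, 91.2 and 90.2 CPM in the tumours labelled KO, all above the 75.7, 80.1, 79.9 and 86.5 CPM of those labelled WT (0.18 ± 0.062, edgeR adjusted p = 0.0685). Sdhb, the iron-sulphur subunit, was at 93.0, 85.2, 100.4 and 109 CPM against 87.6, 77.6, 92.5 and 83.1 CPM, with overlap (0.18 ± 0.092, edgeR adjusted p = 0.186). Sdhd, the other anchor, was at 132, 141, 135 and 156 CPM against 120.5, 119, 141 and 130.4 CPM, also with overlap (0.14 ± 0.084, edgeR adjusted p = 0.252).

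Summed over the 4 genes, complex II was at 573 ± 21.8 CPM in tumours labelled KO and 500 ± 18.7 CPM in tumours labelled WT (SD, n = 4 each), and the groups did not overlap. As a share of all counts the sums did overlap, at 0.0488% to 0.0575% against 0.0504% to 0.0549%. The call of Sdha was lost with library totals (log2 fold change 0.063, edgeR adjusted p = 0.609), without a filter on low counts (edgeR adjusted p = 0.0551), and when any 1 tumour other than WT replicate 2 was left out (edgeR adjusted p = 0.0631 to 0.0970).

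In complex I 1 of 36 genes was called (2.78%), beside 21.8% of all tested genes, and the median log2 fold change was 0.096. Ndufa3 was at 39.0, 34.4, 41.8 and 34.8 CPM in KO replicates 1 to 4 and at 29.2, 31.9, 28.4 and 31.8 CPM in WT replicates 1 to 4, again without overlap. It rose by a log2 fold change of 0.31 ± 0.090 (edgeR adjusted p = 0.0408). The call was lost with library totals (0.13, edgeR adjusted p = 0.360), without a filter on low counts (edgeR adjusted p = 0.0509), and when any 1 tumour other than KO replicate 4 was left out (edgeR adjusted p = 0.0523 to 0.109).

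The nuclear core subunits of complex I carry the flavin and the iron-sulphur clusters that lead electrons from NADH to ubiquinone, and accessory subunits surround them. The 29 genes counted as accessory by their symbols, Ndufa4 among them, had a median log2 fold change of 0.12. The core subunits described here did not pass the test. Ndufv1, which binds NADH and the flavin, was at 69.4 ± 5.13 CPM in tumours labelled KO and 74.9 ± 6.08 CPM in tumours labelled WT (SD, n = 4 each, edgeR adjusted p = 0.381). Its partner Ndufv2 was at 59.2 ± 2.31 and 57.9 ± 4.07 CPM (edgeR adjusted p = 0.781). Ndufs1, the largest of the iron-sulphur subunits, was at 81.9 ± 7.46 and 76.7 ± 3.77 CPM (edgeR adjusted p = 0.444). Ndufs3, Ndufs7 and Ndufs8, in the arm that faces the matrix, had log2 differences of −0.11, 0.058 and 0.13 (edgeR adjusted p = 0.418, 0.640 and 0.391).

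Among the accessory subunits, Ndufb10 in the membrane arm was at 50.5 ± 4.22 CPM in tumours labelled KO and 42.6 ± 1.79 CPM in tumours labelled WT without overlap, and was called by DESeq2 but not by edgeR (0.25 ± 0.079, edgeR adjusted p = 0.0550). The genes counted as accessory with the highest levels per length were Ndufb8 and Ndufa4. Ndufb8 was at 81.0 ± 4.16 and 74.4 ± 7.51 CPM (edgeR adjusted p = 0.341). Ndufa4, named for complex I but now known as a subunit of complex IV, was counted here with complex I by its symbol. Its level was 55.0 ± 3.36 and 57.9 ± 6.71 CPM (SD, n = 4 each, edgeR adjusted p = 0.607). The 36 genes summed to 1507 to 1669 CPM in tumours labelled KO and 1439 to 1577 CPM in tumours labelled WT, which overlap.

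In complex III 0 of 8 genes were called by edgeR and 0 by DESeq2, and 2 had an unadjusted p under 0.05, beside 36% of all tested genes (median log2 fold change 0.080). These were Uqcr10, a small membrane subunit, at 52.5 ± 2.62 and 46.3 ± 2.51 CPM in tumours labelled KO and WT (0.18 ± 0.070, edgeR adjusted p = 0.0958), and the core protein Uqcrc1, at 143 ± 9.05 and 126 ± 7.34 CPM (0.18 ± 0.074, edgeR adjusted p = 0.123). The other core protein, Uqcrc2, was at 127 ± 3.23 and 123 ± 5.10 CPM. Uqcrfs1, the Rieske iron-sulphur protein, was at 83.4 ± 7.68 and 80.6 ± 4.68 CPM (SD, n = 4 each). For Uqcrh the means were 81.0 and 81.4 CPM, and the 95% interval of the log2 difference ran from −0.14 to 0.13. The 8 genes summed to 572 to 625 CPM against 540.2 to 588 CPM, with overlap.

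In complex IV 0 of 12 genes were called by edgeR, 2 had an unadjusted p under 0.05, beside 36% of all tested genes, and DESeq2 called 1, beside 28.3% of all (median log2 fold change 0.13). Cox7b, a small subunit needed for assembly of the complex, was at 58.0, 65.3, 63.5 and 60.9 CPM against 49.1, 50.5, 56.8 and 55.9 CPM, without overlap between the labelled groups. This is the gene that DESeq2 called (adjusted p = 0.0394), while edgeR gave 0.22 ± 0.075 (adjusted p = 0.0660). Cox4i1, which takes part in regulating the enzyme, was at 240 ± 24.6 and 237 ± 24.2 CPM, and Cox6b1, on the intermembrane side, at 129 ± 1.08 and 120 ± 7.20 CPM (SD, n = 4 each, edgeR adjusted p = 0.916 and 0.304).

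The ubiquitous isoforms Cox6a1, Cox7a2 and Cox8a had log2 differences of 0.14, 0.022 and 0.17 (edgeR adjusted p = 0.274, 0.836 and 0.281). Cox7a2l, which helps join complexes III and IV into supercomplexes, had one of −0.12 (edgeR adjusted p = 0.477). The complex summed to 941 to 1006 CPM in tumours labelled KO and 843 to 979 CPM in tumours labelled WT, with overlap.

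Cox7a1, the heart and muscle form of Cox7a2, had a wide difference from few reads. It had 28, 22, 41 and 21 counts in KO replicates 1 to 4 and 15, 18, 22 and 16 counts in WT replicates 1 to 4. After scaling, KO replicate 3 was the highest at 2.85 CPM, and KO replicate 4 (0.983 CPM) lay just below WT replicate 3 (0.986 CPM). The log2 difference of 0.90 ± 0.35 was not called (edgeR adjusted p = 0.0970), and it was 0.53 without KO replicate 3. Of 5 muscle and adipose markers tested, 0 were called higher and 1 lower. Of 10 fibroblast markers edgeR called 2 higher and 0 lower (median log2 fold change 1.16), beside 11.1% and 10.8% of all tested genes. DESeq2 called 3 of the 10 higher and 0 lower, beside 14.2% and 14% of all. Fibroblast markers summed to 773 to 4266 CPM in tumours labelled KO and 419 to 1540 CPM in tumours labelled WT. The part of both marker lists in the Cox7a1 values was not tested. Cox6b2, a testis isoform, was at 2.01 to 3.28 CPM against 2.42 to 3.75 CPM (edgeR adjusted p = 0.650).

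Most of the subunit genes were measured with narrow intervals. The 95% interval of the difference lay inside a 1.5-fold change in both directions for 54 of the 60 genes (90%), and for 43.6% of all tested genes. The 6 others were Ndufs5, Cox7a1, Ndufa12, Ndufa1, Ndufb9 and Cox6b2, of which Ndufs5 and Cox7a1 had intervals beyond 2-fold. Among genes with a mean of at least 10 CPM, the SD of log2 CPM within a labelled group had a median of 0.11 in 56 subunit genes and 0.16 in all 10268 genes. These intervals take the TMM scaling as given.

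**Figure D2:**
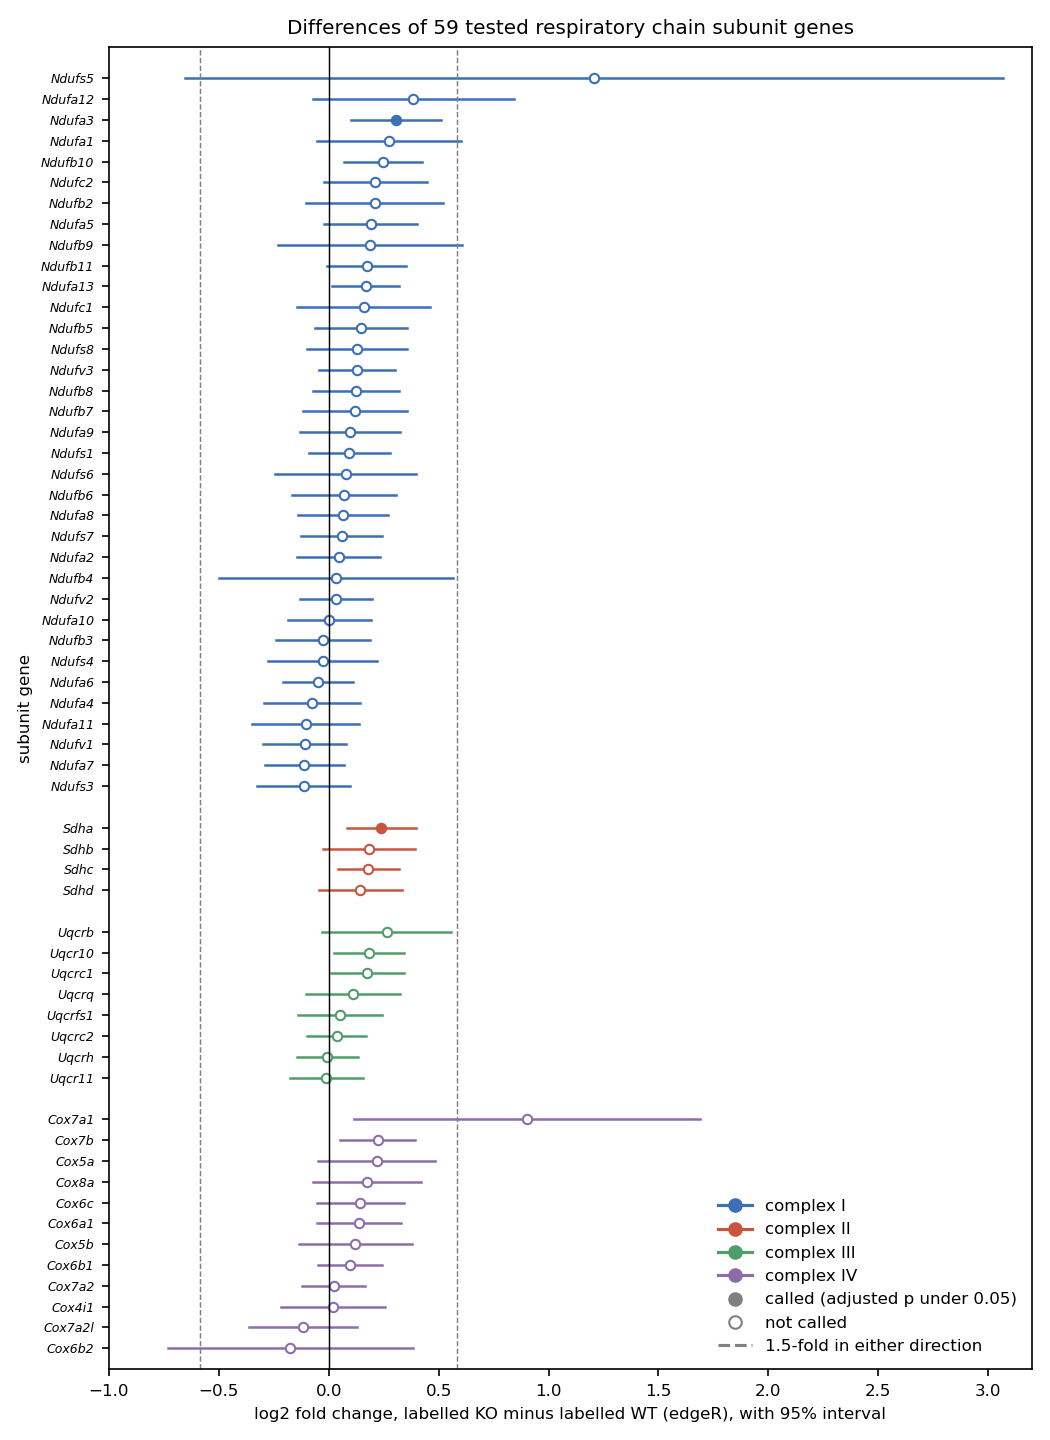
Log2 fold change (labelled KO minus labelled WT, n = 4 tumours each) with its 95% interval for 59 of the 60 tested genes, coloured by complex; filled points were called and dashed lines mark 1.5-fold. Ndufa3 and Sdha are filled, and 53 of the 59 intervals lie between the dashed lines.

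**Figure D3:**
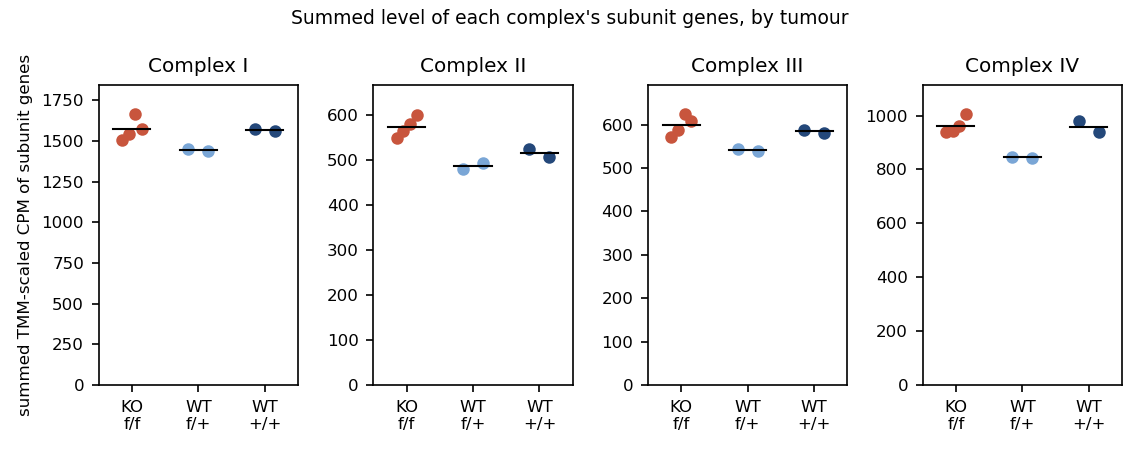
Summed CPM of the subunit genes of each complex in each tumour (points), by Lifr genotype, with the genotype's mean as a line; vertical axes start at 0. The f/+ tumours are lowest in all 4 complexes, and in complex II the tumours labelled KO (549 to 600.1 CPM) lie above all those labelled WT (479 to 523 CPM).

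The 2 control genotypes were compared in a model with all 3 genotypes, in which 61 subunit genes were tested (Cox4i2 passed its filter as well). Between f/+ and +/+ tumours edgeR called 0 of the 61, beside 0.00654% of all 15284 genes, which is 1 gene. An unadjusted p under 0.05 was found for 8 of the 61 (13.1%, beside 5.12% of all genes). That count was 3 of 60 with library totals (beside 4.84% of all genes), 3 of 60 with only the 4 WT tumours in the fit (3.78%), 3 of 60 without WT replicate 2 (3.37%) or WT replicate 3 (4.89%), and 5 of 60 without WT replicate 4 (5.34%). It was 6 without a filter on low counts (beside 4.66% of all genes), 7 with DESeq2 (6.03%) and 9 without WT replicate 1 (9.07%). DESeq2 called 1 gene, Ndufs5, beside 0.353% of all genes.

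The signs leaned one way: 54 of the 61 genes had lower estimates in f/+ tumours (median −0.14), beside 51.1% of all genes. Both f/+ tumours were below both +/+ tumours in 34 of the 60 genes (56.7%), beside 15.1% of all genes, and above them in 3 (5%), beside 14%. With library totals, a scaling tried here after seeing the data, both were below in 26 of the 60, beside 11.9% of all genes. Assembly factors of the complexes also had mostly lower estimates in f/+ tumours, with 7 of 45 above 0 and a median of −0.13. Markers of other cell types moved in the same comparison. Of 14 acinar markers, 14 had higher estimates in f/+ tumours (median 3.40, 3 at an unadjusted p under 0.05). The acinar share of counts was 0.129% and 1.27% in WT replicates 1 and 2 (f/+), and 0.0552% and 0.123% in WT replicates 3 and 4 (+/+). WT replicate 1 was thus close to WT replicate 4, and the high share was that of 1 tumour. All 7 lymphocyte markers also had higher estimates in f/+ tumours (median 1.56, 4 at an unadjusted p under 0.05). Of both marker lists edgeR called 0. Their part in the subunit values was not tested.

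After Ndufs5, described further on, the smallest p between the control genotypes were those of Ndufs4 and Cox5a. Ndufs4, an accessory subunit of complex I whose loss causes Leigh syndrome, had 39.1 and 38.0 CPM in f/+ tumours but 48.7 and 50.3 CPM in +/+ tumours (−0.36 ± 0.10, edgeR adjusted p = 0.864). KO replicates 1 to 4 had 42.1, 46.9, 41.6 and 42.2 CPM, between the control genotypes. Cox5a, a matrix-side subunit of complex IV, had 81.9 and 74.2 CPM in f/+ tumours but 93.5 and 109 CPM in +/+ tumours (−0.37 ± 0.11, edgeR adjusted p = 0.873). KO replicates 1 to 4 had 100.4, 114, 101 and 102 CPM, all above the f/+ tumours and overlapping the +/+ tumours.

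Set against each control genotype, the tumours labelled KO gave different values. Against f/+ tumours the median log2 difference was 0.22 over the 60 genes and 0.018 over all tested genes, and 2 genes were called, Cox5a (0.42) and Cox7b (0.32), beside 13.3% of all genes. Against +/+ tumours the medians were 0.038 and 0.014, and 1 gene was called, Ndufs5, beside 6.79% of all genes. Both comparisons use the same 4 tumours labelled KO and are given side by side only.

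The sums by complex were lower in f/+ than in +/+ tumours in all 4 complexes, a difference that was not tested. Complex IV had a mean of 962 CPM in tumours labelled KO, 845 CPM in f/+ and 958 CPM in +/+ tumours. Complex I had means of 1574, 1445 and 1569 CPM, and complex III of 598, 542 and 585 CPM. In complex II the mean of 573 CPM in tumours labelled KO was above both the 486 CPM of f/+ and the 514 CPM of +/+ tumours. As a share of all counts complex II overlapped between all 3 genotypes. It was 0.0488% to 0.0575% in tumours labelled KO, 0.0504% and 0.0543% in f/+, and 0.0549% and 0.0529% in +/+ tumours. The log2 difference of Sdha was 0.25 from f/+ and 0.24 from +/+ tumours (edgeR adjusted p = 0.107 and 0.141), and that of Ndufa3 was 0.30 and 0.32 (edgeR adjusted p = 0.136 and 0.132), so neither was called against 2 control tumours alone.

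**Figure D4:**
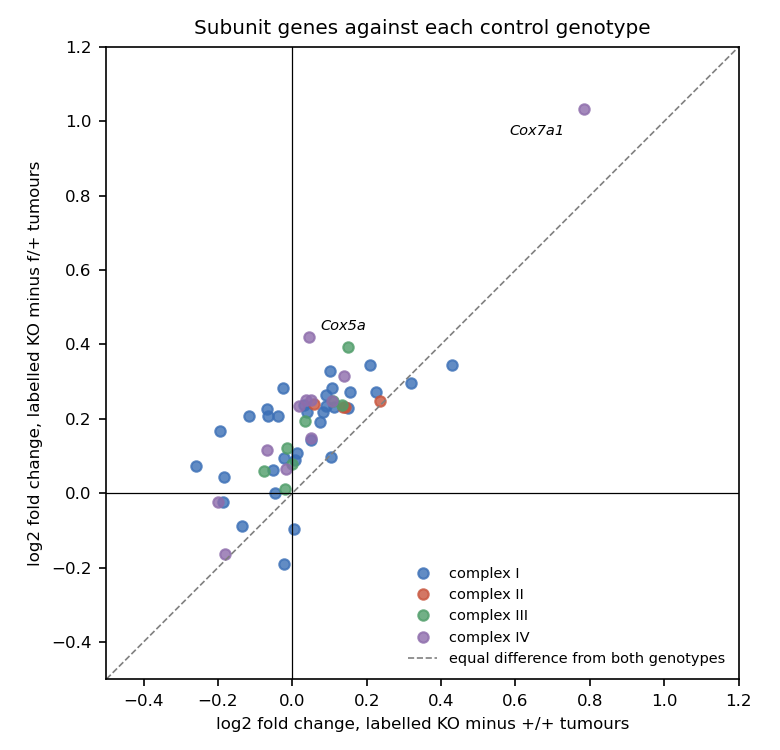
Log2 fold change of 58 subunit genes (without Ndufs5) in the tumours labelled KO against the 2 f/+ tumours (vertical axis) and against the 2 +/+ tumours (horizontal axis), coloured by complex; both axes use the same 4 tumours labelled KO, and the dashed line marks equal values. Most points lie above the line, as for Cox5a (0.42 against 0.045).

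Ndufs5, an accessory subunit in the membrane arm of complex I, differed between the control genotypes, with few counts in every tumour. It had 25, 19, 31 and 35 counts in KO replicates 1 to 4, 22 and 31 in f/+ tumours, and 1 and 1 in +/+ tumours. All 6 tumours with a floxed Lifr allele were thus above both tumours without one. Relative to scaled depth the f/+ sum of 53 counts was 25.6 times the +/+ sum of 2 counts (exact 95% interval 6.75 to 217, counting error only). Between f/+ and +/+ tumours edgeR gave an unadjusted p of 5.5e-05 (adjusted p = 0.169) and DESeq2 an adjusted p = 0.0243. Against +/+ tumours Ndufs5 was higher in the tumours labelled KO (edgeR adjusted p = 0.0285). The transcript spans chr4:123712710-123718186 (mm10, minus strand), while Lifr is on chromosome 15, and 41.2% of its 50-base stretches also occur in a pseudogene, so the values are uncertain.

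**Figure D5:**
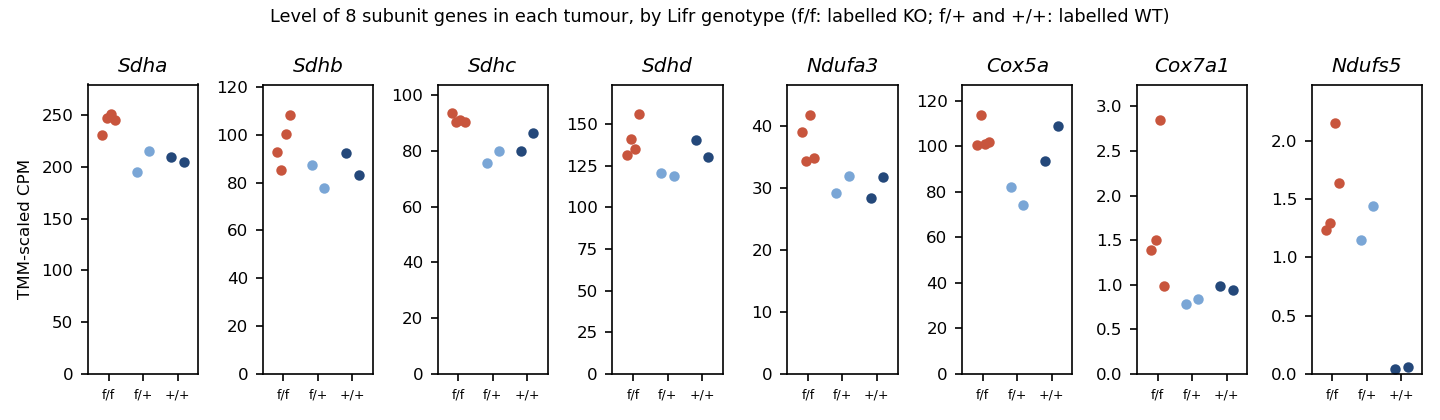
CPM of 8 subunit genes in each of the 8 tumours, by Lifr genotype (4 f/f tumours labelled KO, 2 f/+ and 2 +/+ labelled WT); each vertical axis starts at 0. Sdha and Ndufa3 are higher in all f/f tumours than in the others, Cox5a is lowest in the f/+ tumours, and Ndufs5 is near 0 in the +/+ tumours.

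Other genes of mitochondrial respiration were described from lists, where rose and fell mean called by edgeR. Over all tested genes 11.1% were called higher and 10.8% lower. Single genes of these lists were not followed under other scalings or with tumours left out. Of 16 complex V genes tested, 1 rose and 0 fell (median log2 fold change 0.090): Atp5k, for the e subunit of the synthase (0.29 ± 0.076, edgeR adjusted p = 0.0269). Of 45 assembly factors 2 rose and 0 fell (median 0.14). These were Pet100 (0.29) and Coa5 (0.26), both known from complex IV assembly (edgeR adjusted p = 0.0382 and 0.0472). Of 16 enzymes of the citrate cycle 2 rose and 0 fell (median 0.032). Ogdh, of the 2-oxoglutarate dehydrogenase complex, rose from 225 ± 14.9 to 296 ± 13.1 CPM (SD, n = 4 each, edgeR adjusted p = 0.0106). Fh1, for fumarate hydratase, which acts on the product of complex II, rose from 56.9 ± 4.67 to 70.6 ± 5.71 CPM (edgeR adjusted p = 0.0338).

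Of 15 regulators of mitochondrial biogenesis, such as Nrf1 and Tfam, 0 were called by edgeR or DESeq2 and 0 had an unadjusted p under 0.05 (median 0.079). Of 48 genes of the large mitochondrial ribosomal subunit 1 rose, Mrpl3 (0.27, edgeR adjusted p = 0.0483), and 0 fell. Of 28 genes of the small subunit 0 were called by either tool and 2 had an unadjusted p under 0.05, beside 36% of all tested genes. Cyc1, the cytochrome c1 subunit of complex III whose symbol falls outside the names used here, was at 90.2 ± 5.93 and 87.1 ± 5.58 CPM in tumours labelled KO and WT (SD, n = 4 each, edgeR adjusted p = 0.670). Of 7 hypoxia-linked genes 1 rose, Hif1a, the oxygen-regulated transcription factor (0.81 ± 0.23, edgeR adjusted p = 0.0363), and 0 fell, with a median of −0.12.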

How the data were processed

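RNA of sorted EpCAM-positive cells from 8 tumours had been sequenced. Per the file headers, the authors deposited raw counts of tags in exons of mm10 RefSeq transcripts (HOMER analyzeRepeats.pl, plus-strand setting, genes condensed to 1 transcript) and FPKM values from the same program. The same transcript stood in both tables for 58 of the 66 genes. FastQC 0.11.2, STAR 2.4.0k, HOMER and edgeR 3.6.8 are listed per the submitters' processing notes, without their roles. Whether the libraries keep strand is not given in the sources used here. Groups came from the labels, which describe separate mice, and replicate numbers only name tumours.

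Here the counts were tested with edgeR 4.0.16 in R 4.3.3 (TMM, filterByExpr with a minimum count of 10 and total of 15, glmQLFit, glmQLFTest, Benjamini-Hochberg adjustment), for 4 against 4 tumours and with 3 genotypes in 1 model. Standard errors came from the F statistic. The test was tried on simulated data. Alternatives used DESeq2 1.42.0, limma 3.58.1 on log2(FPKM + 1), other scalings, no filter, each control genotype alone and tumours left out. Shared stretches were counted in GENCODE M21 transcripts.

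The members and lists were chosen with earlier results of these data known. Named were the called genes with the smallest p in each complex (2 with the smallest p where none was called), the 2 highest in FPKM, all Sdh genes, core subunits, isoform pairs, 3 genes for the control genotypes, genes whose call changed with the scaling, and up to 3 called genes per other list. Ndufb10, Ndufa13 and the genes flagged or listed for wide intervals were named after their values were seen. A subunit gene is not reported individually here.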

Additional observations from a re-analysis of the deposited data

Results flagged for a closer look

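In 128 groups of 4 tumours (60 genes and 4 sums per complex, in each labelled group), the highest or lowest tumour stood apart from the other 3 in 8, where chance gives about 1 in 20. Tumours high in their group were KO replicate 3 for Ndufb9 (90.3 CPM, others 50.7 to 54.1), KO replicate 2 for Cox5a (114 CPM, others 100 to 102), Ndufb5 (57.3 CPM, others 48.0 to 49.0) and Ndufs4 (46.9 CPM, others 41.6 to 42.2), and WT replicate 4 for Ndufb5 (52.2 CPM, others 43.2 to 44.2). Tumours low in their group were KO replicate 1 for Ndufa6 (56.1 CPM, others 62.2 to 63.0) and WT replicate 2 for Uqcrq (48.9 CPM, others 61.0 to 62.1) and Ndufv2 (51.8 CPM, others 59.2 to 60.5). None of these 7 genes was called between the labelled groups.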

How the results depend on the processing

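The 2 genes called higher in the tumours labelled KO became 5 with DESeq2, 0 with library totals, with log2(FPKM + 1), without a filter, and without KO replicate 1 and WT replicate 2 together, and 1 with only f/+ or only +/+ tumours as controls (Cox5a and Ndufs5). With any 1 tumour left out the count was 0 to 2, and it was 0 without replicate 1 or replicate 3 of either labelled group. It was 2 without KO replicate 2 and without WT replicate 4, but neither Sdha nor Ndufa3 was among the genes then called. The count called lower was 0 as reported and with any 1 tumour left out, 1 with library totals and 2 with log2(FPKM + 1). Libraries scaled to the epithelial markers moved the median of all genes to 0.87 and gave 59 higher calls and 0 lower. Under that scaling these genes turned from below 0 to called higher: Cox7a2l (0.73), Ndufa11 (0.75), Ndufa4 (0.78), Ndufa6 (0.82), Ndufa7 (0.75), Ndufb3 (0.83), Ndufs3 (0.75), Ndufs4 (0.83), Ndufv1 (0.75), Uqcr11 (0.84) and Uqcrh (0.85). Relative to all genes the subunit median stayed above, by 0.023 (only +/+ controls) to 0.20 (only f/+ controls). The 21.8% of all tested genes called became 74.8% with the epithelial scaling, 12.8% and 7.34% with f/+ and +/+ controls alone, 12.9% without KO replicate 1 and WT replicate 2, and 11.7% (without KO replicate 2) to 21.7% with 1 tumour left out. Between f/+ and +/+ tumours DESeq2 called 54 of all genes where edgeR called 1, and 1 subunit gene (Ndufs5) where edgeR called 0. With any 1 control left out edgeR again called 0, in fits where the lone tumour of a genotype is assumed to vary like the other groups. The Lifr difference (0.90) was not called with only f/+ controls (0.74). The causes of these changes were not tested. No paired analysis was made, because the labels describe separate mice and give no pairs. Ndufs5 and Cox7a1 rest on 165 and 183 counts over 8 tumours, and the 6 untested genes on 0 to 85.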

Other observations

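A search made after the counts of Ndufs5 were seen, for genes with at most 3 counts in each +/+ tumour and at least 10 in each of the other 6, found 4 of 24537 genes, and 0 genes with the reverse pattern. Besides Ndufs5 they were Mucl1 (mm10 chromosome 15), Prg2 (chromosome 2) and Vtn (chromosome 11).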
